A study of Mus musculus with 27 samples.

Results

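The IL-4, IL-10 and interferon receptor chains examined here are 10 genes, Il4ra, Il13ra1, Il2rg, Il10ra, Il10rb, Il6ra, Ifnar1, Ifnar2, Ifngr1 and Ifngr2, taken by symbol from a table of 45070 genes. All 10 were among the 13901 genes that passed a filter on low values, which kept a gene with 10 or more normalised read counts in 3 or more of the 27 samples. The samples were wild-type bone marrow-derived macrophages (BMDMs), primary cells grown from the marrow of young male C57/BL6 mice. Every group, the untreated one included, was first kept for 1 h in DMSO, the solvent of kinase inhibitors that were added to other cells of the study, so no group here received an inhibitor. The cells were then left untreated or were given lipopolysaccharide (LPS), the bacterial cell wall component sensed by TLR4, or the cytokine interleukin-4 (IL-4), either at 10 ng/ml, for 0.5 h, 1 h, 2 h or 4 h. The untreated group carries no time, and no untreated samples were kept alongside each stimulated time. In a change against untreated, the stimulus therefore cannot be told apart from time and handling after the DMSO step. Each of the 9 groups had 3 replicates, and whether these came from separate cultures or animals was not stated, so the p-values measure the spread between these samples, which may be technical. The RNA was the fraction that stays bound to chromatin, which is rich in transcripts still being made, so the values follow transcription of a receptor gene more closely than the receptor on the cell surface.

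Each of these receptors is built from 2 kinds of chain, and JAK kinases are bound to the inner ends of those that signal. When the cytokine brings the chains together, the kinases phosphorylate the receptor and then STAT transcription factors. IL-4 binds IL-4Rα (Il4ra), which pairs either with the common γ chain (Il2rg) in the type I receptor, or with IL-13Rα1 (Il13ra1) in the type II receptor that also binds IL-13, and in macrophages both act mainly through STAT6. IL-10 binds IL-10Rα (Il10ra), the signalling partner being IL-10Rβ (Il10rb), and acts through STAT3 to restrain inflammatory genes. IL-6Rα (Il6ra) binds IL-6 and carries no kinase itself, signalling through gp130 (Il6st), which does. The type I interferons bind IFNAR1 and IFNAR2, and interferon γ binds IFNGR1, with IFNGR2 as the partner that brings in JAK2.

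Several of these genes share a place in the genome. Ifnar2, Il10rb, Ifnar1 and Ifngr2 follow one another on chromosome 16, all on the plus strand (coordinates of the deposited table, mm10/GRCm38, counted from 1). Ifnar2 spans 91372783 to 91405589, Il10rb 91406235 to 91425834, Ifnar1 91485215 to 91510523 and Ifngr2 91547059 to 91564007, so that Il10rb begins 645 bases after the end of Ifnar2. The other chains are spread out. Il4ra lies on chromosome 7 from 125552271 to 125579474 (plus strand), Ifngr1 on chromosome 10 from 19591949 to 19610229 (plus), Il10ra on chromosome 9 from 45253837 to 45269149 (minus) and Il6ra on chromosome 3 from 89869324 to 89913196 (minus). Il13ra1 and Il2rg are both on chromosome X, from 36112108 to 36171262 (plus) and from 101264385 to 101268255 (minus).

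The starts of these genes were read for short motifs of the factors that the receptors and TLR4 activate. RefSeq promoters of build GRCm38.p6, 250 bases before to 50 bases after the gene start, were matched by symbol for 8 of the 10 genes, with none used for Il10ra and Il10rb. The promoters of Il4ra and Ifngr1 are shown whole because these are the 2 genes that were both lower and higher than untreated within the LPS course. Capitals mark matches, on either strand, to the outline of an NF-κB site (GGG and CC with 5 bases of any kind between them), and such matches overlap one another in some other members.

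Il4ra, chr7:125552021-125552320, plus strand: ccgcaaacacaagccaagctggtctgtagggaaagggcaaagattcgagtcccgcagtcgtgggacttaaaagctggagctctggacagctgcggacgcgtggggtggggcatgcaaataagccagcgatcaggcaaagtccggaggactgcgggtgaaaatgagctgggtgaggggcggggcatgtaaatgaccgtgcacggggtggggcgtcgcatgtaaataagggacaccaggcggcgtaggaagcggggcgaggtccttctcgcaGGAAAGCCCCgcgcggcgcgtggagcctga
Ifngr1, chr10:19591699-19591998, plus strand: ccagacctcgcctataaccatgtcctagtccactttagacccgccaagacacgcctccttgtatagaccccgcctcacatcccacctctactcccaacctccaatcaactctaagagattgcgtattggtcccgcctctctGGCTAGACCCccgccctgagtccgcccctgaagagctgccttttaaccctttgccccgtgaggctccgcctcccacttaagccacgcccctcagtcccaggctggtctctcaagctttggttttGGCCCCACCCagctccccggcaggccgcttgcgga

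The NF-κB outline was in 6 of the 8 promoters and in 50.8% of all 32851 promoters of this length, so it is a common run of letters. The STAT outlines were rarer. TTC and GAA spaced by 3 bases of any kind, the outline of a gamma-activated site, were in 8.30% of all promoters and in those of Ifnar1 and Ifnar2. The same letters spaced by 4 bases of any kind, the spacing that STAT6 prefers, were in 6.95% of all promoters and in that of Ifngr2. GAAA repeated after 2 bases of any kind, the outline of an interferon-stimulated response element, was in 3.44% of all promoters and in none of the 8. The 3 STAT-like matches, both strands read, are given with 8 bases on either side and the match in capitals, since they are all in the chromosome 16 neighbours.

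Ifnar1, 3-base spacing, chr16:91485202-91485226, plus strand: cgggggcgTTCACGGAAggggcggg
Ifnar2, 3-base spacing, chr16:91372561-91372585, plus strand: ccaaggccTTCCTGGAAgaagagag
Ifngr2, 4-base spacing, chr16:91546960-91546985, plus strand: ggccgcggTTCCCGGGAAcaccgggg

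The match in Ifnar1 began 5 bases before the gene start, that in Ifnar2 214 bases and that in Ifngr2 91 bases before it. These are matches of letters and not measured binding sites.

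Summed over all genes, the LPS samples held 3571492 to 4058199 normalised read counts and all other samples 2469768 to 2790981. The values had been scaled by the authors on genes taken as invariant, so these sums are not depths, and the depth behind each value is unknown. Because of this difference, scaling every sample to the same total (equal totals below) lowers each LPS change, while median-of-ratios rescaling raises it. Replicates 2 and 3 were closer to each other than either was to replicate 1 (SD of the log2 ratio 0.14 to 0.29 between replicates 2 and 3 and 0.37 to 0.45 between 1 and 2, over 620 highly expressed genes). All 8 macrophage markers passed the filter. Of the lists for T, B, NK and mast cells and for neutrophils no marker passed it, and Cd3e, Cd3g and Ly6g were at 0 in all samples, while 2 of 4 dendritic cell markers and 2 of 4 fibroblast markers passed it. The 4 dendritic cell markers summed to 6 to 9 normalised read counts untreated, 5 to 98 after LPS and 11 to 24 after IL-4, with Xcr1 at 0 throughout and both tested ones higher at LPS 1 h, and the 4 fibroblast markers to 37 to 88, 32 to 217 and 28 to 208. Their part in the results was not tested. Fewer cells of a type and less RNA per cell cannot be told apart in such bulk samples.

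In untreated macrophages the chains were transcribed at different levels. Per kilobase of exon the order was Il6ra (209.9 ± 17.6 normalised read counts per kb, SD, n = 3 here and below), Il10rb (209.5 ± 25.1), Ifnar2 (140 ± 5.8), Il10ra (127 ± 8.1), Ifngr1 (85.9 ± 6.0), Il4ra (82.7 ± 7.1), Ifngr2 (60.2 ± 12.9), Ifnar1 (53.9 ± 4.6), Il2rg (19.0 ± 2.1) and Il13ra1 (13.5 ± 2.1). The replicates of neighbours in this order overlapped for Il6ra and Il10rb, Ifnar2 and Il10ra, Ifngr1 and Il4ra, and Ifngr2 and Ifnar1, and were apart at the other steps. By this measure the 2 partners of IL-4Rα were the lowest of the 10 chains in resting cells. Chromatin-bound RNA also holds introns, and whether reads in introns were counted was not stated, so the order was also taken per kilobase of the whole gene, where Il10ra was first (28.9) and Il13ra1 again last (0.845), while Il2rg (8.18) then stood above Ifngr2 (7.47).

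Over the LPS course all 10 chains changed, 9 with their largest change upward and Il6ra downward, in a moderated F test (limma, log2 of value + 1, adjusted p under 0.05). As many as 87.6% of all tested genes passed that test, 32.9% upward and 54.7% downward, so the count alone sets the chains apart from nothing. At equal totals the split was 5 and 5, and with median-of-ratios rescaling it stayed at 9 and 1. In the IL-4 course 7 of the 10 passed it, against 40.3% of all genes, 3 upward (Il4ra, Il6ra and Ifnar1, beside 19.4% of all genes) and 4 downward (Il13ra1, Il10ra, Ifnar2 and Ifngr1, beside 20.9%), a split of 1 and 6 with either other scaling.

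At single LPS times 6, 8, 7 and 7 chains were higher than untreated in order of time, against 19.6, 24.8, 26.9 and 25.9% of all genes, and 2, 1, 2 and 2 were lower, against 34.4, 39.0, 39.0 and 37.6%. At equal totals 4, 4, 6 and 5 were higher and 4, 2, 3 and 3 lower, and with median-of-ratios rescaling 6, 9, 7 and 7 were higher and 1, 1, 2 and 2 lower. At single IL-4 times 2, 1, 1 and 1 were higher (8.15, 11.1, 14.3 and 13.4% of all genes) and 2, 3, 3 and 4 were lower (8.14, 9.83, 13.2 and 12.5%). The median log2 change against untreated over the 10 chains was 0.73, 0.73, 1.14 and 0.89 at the LPS times, beside -0.24, -0.30, -0.29 and -0.26 over all genes. At equal totals these medians were 0.23, 0.15, 0.48 and 0.29 beside -0.73, -0.86, -0.91 and -0.84, so the chains' median stood above that of all genes in both. From one LPS time to the next, 8, 7 and 2 chains changed (54.4, 47.7 and 28.4% of all genes), and from one IL-4 time to the next 2, 1 and 1 (4.52, 6.34 and 3.06%), the first and last of these being 6 and 2 when the replicate number entered as a block. Called at all 4 LPS times were 6 chains, Il4ra, Il13ra1, Il2rg, Il10ra, Il6ra and Ifnar1, beside 27.5% of all genes.

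**Figure D1:**
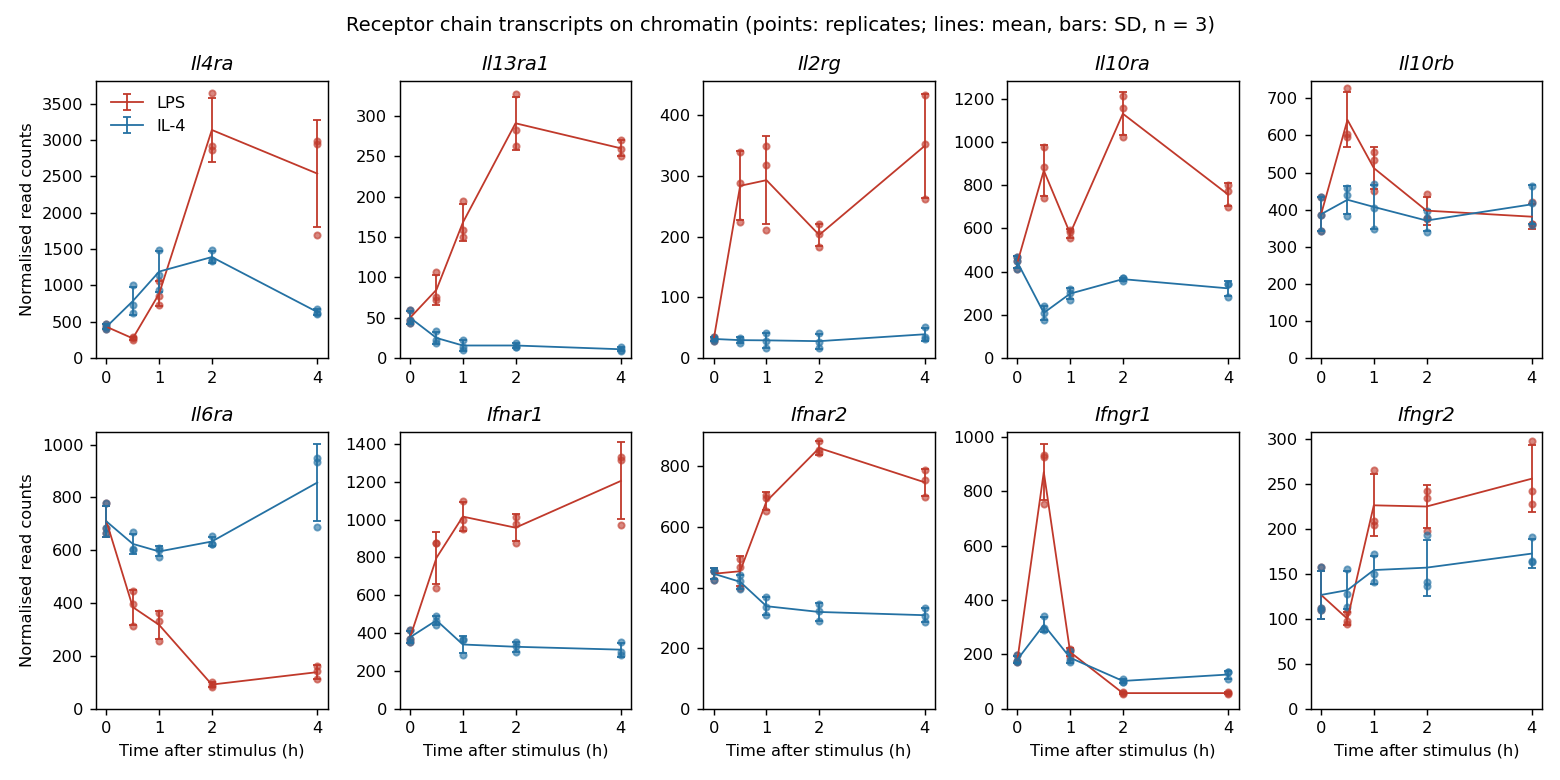
Normalised read counts (y axis, linear, from 0) of the 10 receptor chain genes against hours after LPS (red) or IL-4 (blue), with time 0 being the untreated cells. Points are replicates, lines join means and bars are SD (n = 3). Il4ra rose in both courses, Il13ra1 and Ifnar2 parted in opposite directions, and Ifngr1 rose at 0.5 h and then fell below untreated in both.

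Il4ra, the chain that binds IL-4, had 427, 397 and 471 normalised read counts in the 3 untreated samples. After LPS it had 285, 254 and 277 at 0.5 h, then 1068, 735 and 858 at 1 h, then 2918, 2857 and 3643 at 2 h, and 1695, 2941 and 2982 at 4 h. The 0.5 h samples were all below the untreated ones, those of the later times were all above them, and replicate 1 stood apart at 4 h. The gene was thus 1.58-fold lower at 0.5 h (log2 change -0.66 ± 0.19, SE, adjusted p = 0.00892, limma) and 7.23-fold higher at 2 h (log2 change 2.85 ± 0.19, adjusted p = 3.57e-09, limma). From 0.5 to 2 h it rose 11.4-fold (log2 change 3.52, adjusted p = 1.26e-13, limma), and from 2 to 4 h no further change passed the test (log2 change -0.34, adjusted p = 0.209). The early fall was the less secure part, since its adjusted p was 0.0756 with median-of-ratios rescaling and 0.0662 and 0.0883 without replicate 2 or 3 (limma).

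IL-4 also raised transcription of its own receptor. Il4ra had 1004, 624 and 727 normalised read counts at 0.5 h of IL-4, 1493, 1140 and 940 after 1 h, 1490, 1333 and 1350 at 2 h, then 612, 618 and 676 at 4 h. All 12 IL-4 samples lay above the untreated ones, and those of 4 h were close to the lowest sample of 0.5 h. The gain peaked at 2 h (3.22-fold, log2 change 1.69 ± 0.17, adjusted p = 5.53e-06, limma) and then shrank 2.19-fold by 4 h (log2 change from 2 to 4 h -1.13 ± 0.19, adjusted p = 0.00108, limma), a step that did not pass without replicate 2 (0.124) or 3 (0.0985). At 4 h Il4ra was still 1.47-fold above untreated (adjusted p = 0.0267, limma), which did not pass without replicate 2 (adjusted p = 0.204) or 3 (0.147), and the gain at 0.5 h (1.78-fold) did not pass without replicate 2 (0.0645). Il4ra and Il13ra1 were the 2 chains called at all 4 IL-4 times, as 6.50% of all genes were.

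Set side by side, the stimuli differed in timing at Il4ra. At 0.5 h the LPS samples were 2.83-fold below the IL-4 samples (log2 difference -1.50 ± 0.19, adjusted p = 6.78e-07, limma, no overlap). At 1 h the difference was -0.42 ± 0.19 (adjusted p = 0.0658, 0.039 when blocked by replicate number, and 0.00025 at equal totals, where it was -0.89). At 2 h LPS was 2.24-fold above IL-4 (adjusted p = 1.25e-05) and at 4 h 3.87-fold (log2 difference 1.95 ± 0.19, adjusted p = 4.49e-09, limma). Over the 9 groups the means of Il4ra ran from 272 at LPS 0.5 h to 3139 at LPS 2 h, and LPS 2 h and LPS 4 h overlapped, as did each neighbouring pair from IL-4 2 h down to IL-4 4 h in the order IL-4 2 h, IL-4 1 h, LPS 1 h, IL-4 0.5 h and IL-4 4 h.

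Il13ra1, the partner that makes the type II receptor, moved in opposite directions under the 2 stimuli. Its 3 untreated samples had 59, 47 and 44 normalised read counts, and its LPS samples had 106, 76 and 72 at 0.5 h, 194, 159 and 150 after 1 h, 327, 263 and 282 at 2 h, then 250, 270 and 259 at 4 h. Under IL-4 it had 33, 23 and 19 at 0.5 h, 23, 14 and 10 after 1 h, 19, 14 and 14 at 2 h, then 14, 10 and 9 at 4 h. Every LPS sample lay above the untreated ones and every IL-4 sample below them. LPS raised it 5.74-fold at 2 h (log2 change 2.52 ± 0.17, adjusted p = 3.13e-09, limma), and IL-4 lowered it 4.28-fold at 4 h (log2 change -2.10 ± 0.29, adjusted p = 0.000113, limma). The direct difference between the stimuli grew from 3.33-fold at 0.5 h to 22.0-fold at 4 h (log2 difference 4.46 ± 0.24, adjusted p = 6.51e-14, limma), and its group means spanned 26.4-fold, the widest span of the 10 chains. The fall under IL-4 at 0.5 h (adjusted p = 0.0317) did not pass without replicate 2 (0.311) or 3 (0.198), and without replicate 2 those of 1 h (0.0617) and 2 h (0.0579) and the test over the course (0.0716) missed the threshold too. The first LPS rise (0.74 at 0.5 h) did not pass at equal totals (0.23, adjusted p = 0.231).

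A non-coding gene on the other strand, Gm42406, overlaps Il13ra1 and had the same pattern, with a mean of 31.7 normalised read counts untreated, 172 at LPS 4 h and 4.0 at IL-4 4 h. No source used here says whether counting was strand-aware, so the pair could share reads, and the part of Gm42406 in the result was not tested.

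Il2rg, the common γ chain of the type I receptor, responded to LPS from the first time point. It had 28, 35 and 32 normalised read counts untreated and 225, 339 and 288 at 0.5 h, 212, 318 and 350 after 1 h, 184, 204 and 221 at 2 h, then 262, 434 and 353 at 4 h of LPS. The LPS samples were all far above the untreated ones, and those of 2 h lay below every sample of 0.5 h and of 4 h. The rise was already 8.64-fold at 0.5 h (log2 change 3.11 ± 0.21, adjusted p = 1.15e-08, limma) and 10.6-fold at 4 h (log2 change 3.40 ± 0.21, adjusted p = 1.48e-09), and no step between neighbouring LPS times passed the test. The step from 2 to 4 h (log2 change 0.76, adjusted p = 0.0592) did pass when blocked by replicate number (0.0298), at equal totals (0.0484) and without replicate 1 (0.0118, limma). Under IL-4 its 12 samples had between 17 and 52 normalised read counts, around the untreated level, with log2 changes of -0.25 to 0.28 (adjusted p = 0.669 over the course, limma). LPS and IL-4 differed by 7.44-fold to 10.1-fold at the 4 times (adjusted p at most 6.64e-09, limma). At 0.5 h of LPS its log2 change was the largest of the 10 chains, followed by that of Ifngr1.

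**Figure D2:**
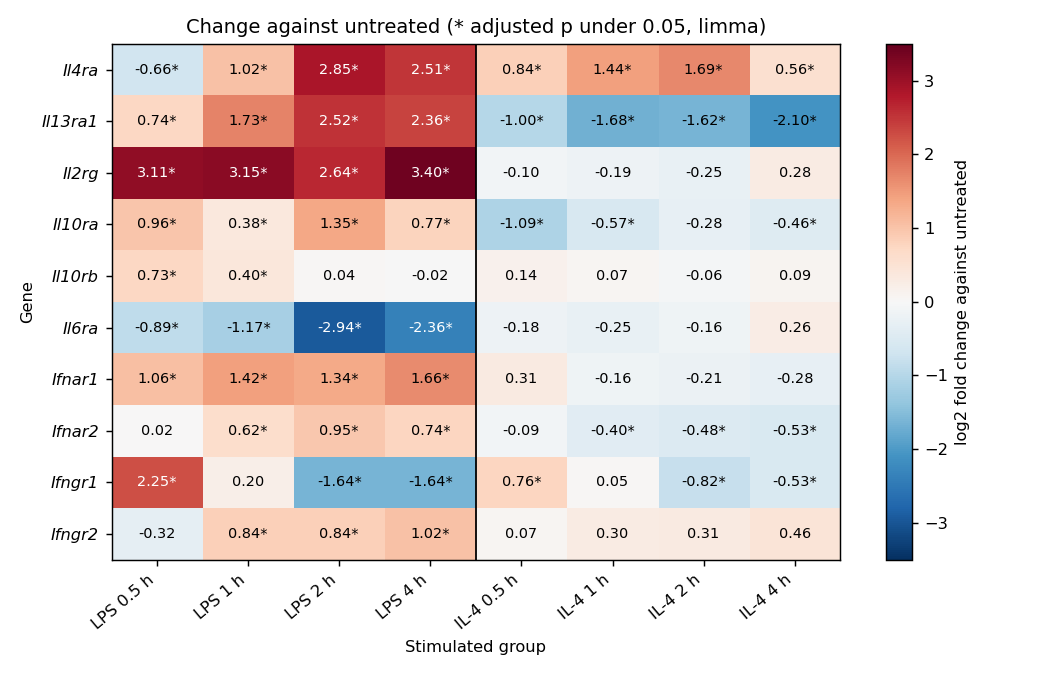
Heat map of the log2 fold change against untreated (colour and printed value) for the 10 genes (y axis) in the 8 stimulated groups (x axis), with an asterisk where the adjusted p was under 0.05 (limma). Il4ra was positive in 7 of the 8 groups, Il2rg changed in the LPS columns, and Il6ra was the one gene lower at all 4 LPS times.

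Because the chains of a receptor are measured in the same sample, a factor that scales the whole sample cancels in the ratio of the pair, apart from the 1 added to each value before the ratio was taken. With 3 samples against 3, an exact permutation test cannot go below p = 0.1 (two-sided), so the ratios are given with their spread. In untreated cells Il4ra exceeded Il2rg by 3.73 ± 0.23 on the log2 scale of read counts (not per length), and at 0.5 h of LPS the mean ratio was close to 0 (-0.04 ± 0.38), with no overlap between the groups. By 2 h of LPS the ratio was back at 3.94 ± 0.12, overlapping the untreated samples. At 4 h of LPS the ratio was lower again, at 2.84 ± 0.21, without overlap with the untreated samples. Under IL-4 it widened to 5.67 ± 0.54 at 2 h and was 4.01 ± 0.44 at 4 h, again overlapping the untreated samples. The ratio of Il4ra to Il13ra1 was 3.09 ± 0.28 untreated, fell to 1.69 ± 0.26 at 0.5 h of LPS, and reached 6.40 ± 0.15 at 2 h of IL-4.

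**Figure D3:**
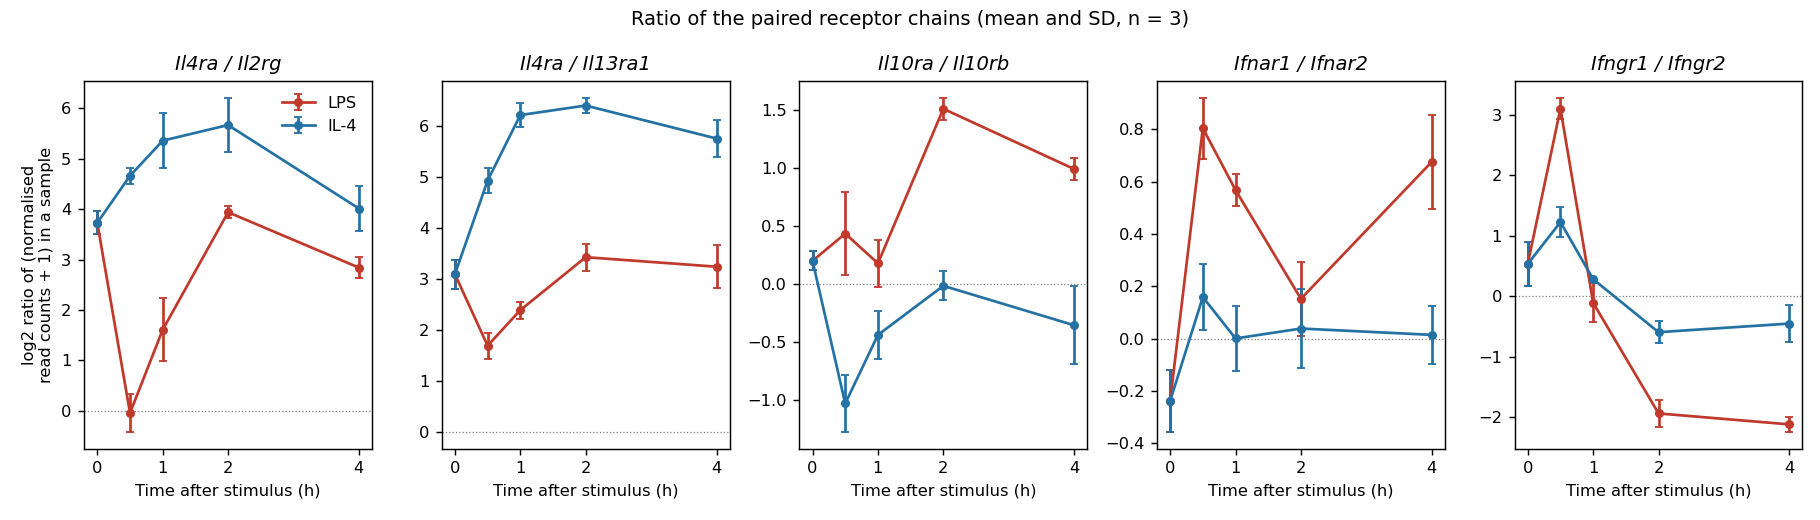
Log2 ratio of the normalised read counts, each plus 1, of the 2 chains of a receptor within a sample (y axis) against hours after LPS (red) or IL-4 (blue), with means and SD (n = 3). The dotted line is an equal value for both chains. Il4ra to Il2rg dropped from 3.73 to -0.04 at 0.5 h of LPS, and Ifngr1 to Ifngr2 went from 0.53 to 3.10 and then to -2.12.

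Il10ra, the ligand-binding chain of the IL-10 receptor, rose with LPS in 2 waves and fell with IL-4. It had 469, 413 and 447 normalised read counts untreated. LPS samples had 976, 741 and 886 at 0.5 h, 592, 554 and 583 after 1 h, 1021, 1158 and 1212 at 2 h, then 800, 771 and 697 at 4 h. All 12 lay above the untreated samples, with those of 1 h between the higher ones of 0.5 and 2 h. The drop from 0.5 to 1 h (log2 change -0.58, adjusted p = 0.000206) and the rise from 1 to 2 h (0.97, adjusted p = 2.39e-07) both passed the test, as did the drop from 2 to 4 h (-0.58, adjusted p = 0.000592, limma, but 0.107 without replicate 3). The highest level, at 2 h, was 2.54-fold that of untreated (log2 change 1.35 ± 0.12, adjusted p = 5.62e-08, limma). The small gain at 1 h (0.38, adjusted p = 0.00943) was not secure, since it did not pass without replicate 2 (0.0868) or 3 (0.092) and was -0.20 when samples were set to equal totals, where the gain at 4 h (0.77) was 0.16 (adjusted p = 0.216).

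The IL-4 response of Il10ra was largest at the first time point. The samples had 241, 176 and 211 normalised read counts at 0.5 h, 321, 271 and 303 after 1 h, 369, 357 and 370 at 2 h, then 282, 345 and 341 at 4 h, all below the lowest untreated sample. The gene was 2.13-fold lower at 0.5 h (log2 change -1.09 ± 0.11, adjusted p = 1.5e-05, limma) and then recovered in part, rising 1.43-fold from 0.5 to 1 h (adjusted p = 0.0093, but 0.26 without replicate 2 and 0.355 without replicate 3). At 2 h its log2 change was -0.28 (adjusted p = 0.0931), and the falls at 1 h (-0.57) and 4 h (-0.46) did not pass without replicate 3 (adjusted p = 0.0923 and 0.125, limma). LPS was above IL-4 at every time, by 4.14-fold at 0.5 h (log2 difference 2.05 ± 0.12, adjusted p = 6.83e-13, limma) and by 1.93-fold at 1 h, the smallest of the 4 differences. A microRNA gene, Mir7086, lies within Il10ra on the same strand and had a mean of 1.74 normalised read counts.

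Il10rb, the second chain of the IL-10 receptor, was the steadiest gene of the set, its group means spanning 1.73-fold. Its untreated samples had 435, 342 and 386 normalised read counts, and it rose to 595, 727 and 603 at 0.5 h of LPS, all above untreated (1.65-fold, log2 change 0.73 ± 0.13, adjusted p = 0.000255, limma). At 1 h it had 449, 554 and 533 (log2 change 0.40, adjusted p = 0.0142), which did not pass without replicate 2 (0.245) or 3 (0.133), and at 2 and 4 h it had 361 to 441, close to the untreated values. At equal totals neither rise passed, the LPS change being 0.22 (adjusted p = 0.177) at 0.5 h and -0.18 (0.245) at 1 h, and Il10rb was lower at 2 h (-0.62, adjusted p = 0.000705) and 4 h (-0.63, adjusted p = 0.000642, limma). Under IL-4 it stayed between 339 and 469 normalised read counts, with log2 changes of -0.06 to 0.14 (SE 0.13, adjusted p = 0.669 over the course). The ratio of Il10ra to Il10rb, 0.20 ± 0.08 on the log2 scale in untreated cells, therefore went to 1.51 ± 0.10 at 2 h of LPS and to -1.03 ± 0.25 at 0.5 h of IL-4, neither overlapping the untreated samples.

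Il10 itself, the ligand, rose from 7.33 normalised read counts untreated to between 136 and 197 at the LPS times (largest log2 change 4.65, adjusted p = 2.42e-10, limma). Under IL-4 it was at 2.0 to 4.0. This fall passed the test over the IL-4 course, also at equal totals (largest log2 change -1.49, adjusted p = 0.0307, limma), but rests on very low values.

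Il6ra, the ligand-binding chain for IL-6, was the one chain that fell throughout the LPS course. It had 666, 684 and 777 normalised read counts untreated and 314, 395 and 445 at 0.5 h, 258, 333 and 361 after 1 h, 84, 102 and 89 at 2 h, then 111, 143 and 162 at 4 h of LPS. No LPS sample reached the untreated values, and the 2 h samples were the lowest. The fall was 1.86-fold at 0.5 h (log2 change -0.89 ± 0.17, adjusted p = 0.000435, limma) and 7.67-fold at 2 h (log2 change -2.94 ± 0.17, adjusted p = 6.49e-10, limma). Between 1 and 2 h it fell 3.41-fold (adjusted p = 6.14e-10), and between 2 and 4 h Il6ra regained 1.49-fold (adjusted p = 0.005, limma), which did not pass without replicate 2 (0.0833) or 3 (0.161). Gm46811, a non-coding gene within Il6ra on the other strand, went from 269 to 33.3 normalised read counts between untreated and LPS 2 h, and its part in the result was not tested.

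Under IL-4 Il6ra stayed near its untreated level, with 669, 603 and 600 normalised read counts at 0.5 h, 574, 610 and 602 after 1 h, 622, 625 and 652 at 2 h, then 687, 949 and 932 at 4 h. The samples of 1 and 2 h were below the lowest untreated one, and 2 of the 3 samples of 4 h were above the highest. No single time passed the test (log2 changes -0.25 to 0.26, adjusted p = 0.1 to 0.316), although at equal totals 0.5 h (-0.31, adjusted p = 0.0468) and 1 h (-0.35, 0.0237) passed as lower, and without replicate 1 these passed (0.0175 and 0.0165), as did the gain at 4 h (0.37, 0.00246), while the test over the course did (adjusted p = 0.0106, limma) and was lost without replicate 2 (0.286) or 3 (0.265). The ligand Il6 was between 0 and 1 normalised read counts in untreated samples, at 0 in all IL-4 samples, and at 21.0, 88.0, 206 and 388 at the 4 LPS times. The IL-6 ligand and its receptor chain thus went in opposite directions after LPS. Il6st, which encodes gp130, was 2.59-fold lower at 4 h of LPS, its largest LPS change (adjusted p over the course 4.83e-06), and had its largest IL-4 change upward (log2 change 1.20, adjusted p over the course 0.000829, limma).

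Both chains of the type I interferon receptor rose with LPS, Ifnar1 first. Ifnar1 had 415, 353 and 367 normalised read counts untreated and 640, 879 and 876 at 0.5 h, 949, 1000 and 1100 after 1 h, 879, 1016 and 978 at 2 h, then 970, 1332 and 1313 at 4 h of LPS. Ifnar2 had 456, 456 and 424 untreated and 399, 467 and 495 at 0.5 h, 651, 696 and 706 after 1 h, 884, 854 and 842 at 2 h, then 700, 788 and 753 at 4 h. At 0.5 h the samples of Ifnar1 had already left the untreated range while those of Ifnar2 straddled it. Ifnar1 was 2.09-fold higher at 0.5 h (log2 change 1.06 ± 0.15, adjusted p = 2.22e-05, limma) and 3.15-fold higher at 4 h (1.66 ± 0.15, adjusted p = 8.69e-08). Ifnar2 had a log2 change of 0.02 ± 0.10 at 0.5 h (adjusted p = 0.873) and was 1.93-fold higher at 2 h (0.95 ± 0.10, adjusted p = 7.01e-07, limma). The ratio of Ifnar1 to Ifnar2 went from -0.24 ± 0.12 untreated to 0.80 ± 0.12 at 0.5 h of LPS, without overlap. At equal totals the change of Ifnar2 was -0.49 at 0.5 h (adjusted p = 0.001), and its gains at 1 h (0.62) and 4 h (0.74) were 0.04 (adjusted p = 0.772) and 0.14 (0.269).

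IL-4 lowered Ifnar2 slightly and left Ifnar1 close to untreated. Ifnar2 had 420, 396 and 440 normalised read counts at 0.5 h of IL-4, 337, 369 and 309 after 1 h, 347, 322 and 289 at 2 h, then 333, 287 and 306 at 4 h. From 1 h on, all samples were below the untreated ones, and the fall at 4 h was 1.44-fold (log2 change -0.53 ± 0.09, adjusted p = 0.000619, limma). That of 1 h (-0.40) did not pass without replicate 2 (adjusted p = 0.0591) or 3 (0.0809). Ifnar1 had 493, 466 and 444 at 0.5 h, above every untreated sample, 370, 364 and 286 after 1 h, 354, 299 and 331 at 2 h, then 353, 302 and 283 at 4 h. Its test over the IL-4 course passed (adjusted p = 0.00623) but not without replicate 2 (0.149) or 3 (0.0821), and single times passed when blocked by replicate number, at 0.5 h (log2 change 0.31, adjusted p = 0.0135, 0.092 without the block) and 4 h (-0.28, adjusted p = 0.0166, 0.0971 without, limma). LPS and IL-4 differed at Ifnar2 by 0.11 on the log2 scale at 0.5 h (adjusted p = 0.35, but -0.27 with 0.0237 at equal totals and 0.36 with 0.00475 after median-of-ratios rescaling) and by 2.69-fold at 2 h (adjusted p = 3.64e-12), and at Ifnar1 by 3.82-fold at 4 h (adjusted p = 1.03e-11, limma). Gm36587, which overlaps the start of Ifnar2 on the other strand, went from 83.0 normalised read counts untreated to 144 at LPS 2 h and 51.3 at IL-4 4 h, the directions of Ifnar2, and its part was not tested.

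The ligand Ifnb1 was at 0 in all untreated and IL-4 samples. In the LPS samples it had means of 5.0, 12.7, 1.0 and 0 normalised read counts, so that its low signal was seen at 0.5 and 1 h. Ifng and Ifna4 had a mean of at most 0.667 in any group. The interferon response genes fixed as a list, such as Cxcl10 and Ifit2, rose over the LPS course in 14 of 14 tested, beside 32.9% of all genes. IL-4 raised 3 and lowered 6 (2 and 7 with median-of-ratios rescaling), beside 19.4% and 20.9% of all genes. Of the listed genes, Ifit2 went from 22.0 normalised read counts untreated to 2436 at LPS 4 h and to 4.67 at IL-4 4 h.

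Ifngr1, the ligand-binding chain of the interferon γ receptor, showed a pulse. It had 173, 175 and 196 normalised read counts untreated, then after LPS 752, 933 and 926 at 0.5 h, 190, 216 and 219 after 1 h, 58, 61 and 54 at 2 h, then 61, 58 and 54 at 4 h. The samples of 0.5 h stood far above all others, those of 1 h overlapped the untreated ones, and those of 2 and 4 h lay well below them and held the same 3 values in another order. The gene was 4.76-fold higher at 0.5 h (log2 change 2.25 ± 0.13, adjusted p = 1.13e-09, limma) and 3.11-fold lower at both 2 and 4 h (log2 change -1.64 ± 0.13, adjusted p = 1.55e-08). From 0.5 to 2 h it fell 14.8-fold (log2 change -3.89 ± 0.12, adjusted p = 3.86e-18, limma). The level at 1 h depended on the scaling, at 0.20 (adjusted p = 0.178), 0.46 with median-of-ratios rescaling (adjusted p = 0.00445) and -0.38 at equal totals (adjusted p = 0.016).

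Under IL-4 Ifngr1 showed a smaller pulse of the same shape. Without untreated samples at each time, a part of time or handling in this shared shape cannot be told apart from the stimuli. Ifngr1 had 297, 288 and 340 normalised read counts at 0.5 h of IL-4, 211, 173 and 179 after 1 h, 110, 98 and 99 at 2 h, then 109, 134 and 135 at 4 h. The samples of 0.5 h lay above the untreated range, those of 1 h across it and the later ones below it. The rise was 1.69-fold at 0.5 h (log2 change 0.76 ± 0.11, adjusted p = 0.000272) and the fall 1.76-fold at 2 h (-0.82 ± 0.11, adjusted p = 8.52e-05, limma), and the fall at 4 h (-0.53) did not pass without replicate 3 (adjusted p = 0.0604). From 0.5 to 2 h Ifngr1 fell 2.99-fold under IL-4 (adjusted p = 1.13e-09, limma). It was the one chain called higher at 1 IL-4 time and lower at another, a pattern found in 1.40% of all genes, and under LPS it shared that pattern with Il4ra (13.0% of all genes). LPS exceeded IL-4 2.81-fold at 0.5 h (adjusted p = 2.28e-10) and lay below it 2.16-fold at 4 h (adjusted p = 1.31e-08, limma), so the swing was larger in both directions with LPS.

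Ifngr2, the partner chain, behaved differently. It had 158, 112 and 110 normalised read counts untreated and 98, 108 and 94 at 0.5 h, 266, 204 and 209 after 1 h, 242, 198 and 235 at 2 h, then 298, 242 and 228 at 4 h of LPS. The samples of 0.5 h were below every untreated one, and the later ones were all above. The log2 change was -0.32 at 0.5 h (adjusted p = 0.118, but 0.000419 at equal totals, where it was -0.83), and the gene was 2.03-fold higher at 4 h (1.02 ± 0.17, adjusted p = 6.37e-05, limma). At equal totals the gains of 1 and 2 h (0.84 at both) were 0.26 (adjusted p = 0.164) and 0.18 (0.324).

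Under IL-4 Ifngr2 had 155, 113 and 128 normalised read counts at 0.5 h, 172, 141 and 150 after 1 h, 193, 137 and 141 at 2 h, then 191, 163 and 164 at 4 h, where all 3 samples exceeded the untreated ones. Neither the course (adjusted p = 0.169) nor a single time passed the test, but when blocked by replicate number the course did (adjusted p = 0.0021), as did 1 h (log2 change 0.30, adjusted p = 0.017), 2 h (0.31, 0.011) and 4 h (0.46, 0.000733, limma). The opposite movements of the partners after LPS show in their ratio. Ifngr1 over Ifngr2 was 0.53 ± 0.36 on the log2 scale untreated, 3.10 ± 0.18 at 0.5 h of LPS and -2.12 ± 0.13 at 4 h, none of these groups overlapping another, and 1.23 ± 0.25 and -0.45 ± 0.30 at the same times of IL-4.

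**Figure D4:**
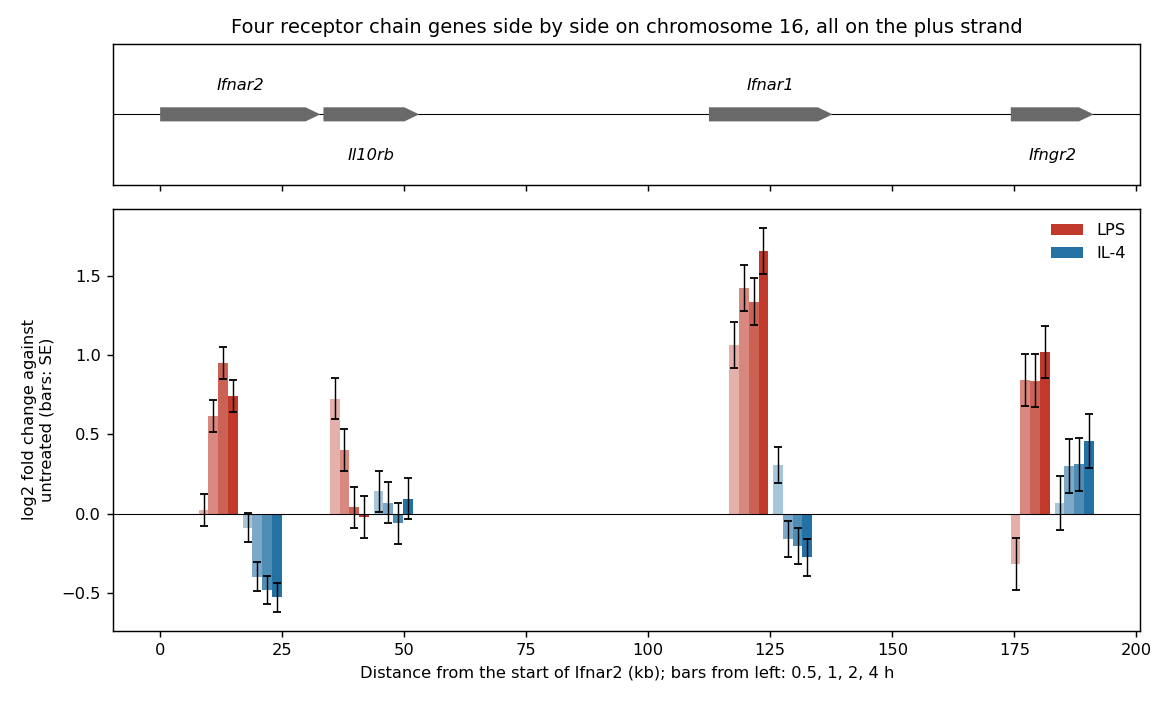
Top, the 4 chain genes of chromosome 16 drawn to scale as arrows along the plus strand, against distance from the start of Ifnar2 in kb. Below each gene, the log2 fold change against untreated with SE at the 4 times of LPS (red, light to dark) and of IL-4 (blue). Ifnar1 rose at all 4 LPS times, Il10rb at the first 2, and Ifnar2 and Ifngr2 from 1 h on, of which at equal totals Ifnar1 at all times, Ifnar2 at 2 h and Ifngr2 at 4 h still passed as higher.

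The chromosome 16 neighbours, 191225 bases from the start of Ifnar2 to the end of Ifngr2, were not all called at the same times. At 0.5 h of LPS Il10rb and Ifnar1 were higher while Ifnar2 and Ifngr2 did not pass the test. At 2 and 4 h Ifnar2, Ifnar1 and Ifngr2 were higher and Il10rb, which lies between the first pair of them, did not pass. Scaling moves these calls. At equal totals Ifnar2 (-0.49) and Ifngr2 (-0.83, adjusted p = 0.000419) were lower at 0.5 h and Il10rb did not pass, while later Il10rb was lower at both times and neither Ifngr2 at 2 h nor Ifnar2 at 4 h passed. Under IL-4 Ifnar2 fell and Il10rb, 645 bases away, did not pass. These contrasts between genes were not tested against each other.

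Compared directly at the same time, LPS and IL-4 differed at 9, 8, 9 and 9 of the 10 chains in order of time, against 53.8, 64.5, 68.6 and 68.0% of all genes. LPS was the higher one at 6, 7, 7 and 7 chains (18.0, 24.0, 26.4 and 26.1% of all genes) and the lower one at 3, 1, 2 and 2 (35.8, 40.5, 42.3 and 41.9%), which at equal totals was 5, 5, 6 and 6 higher and 4, 3, 3 and 3 lower, and with median-of-ratios rescaling 7, 8, 8 and 7 higher and 2, 1, 2 and 2 lower. At 2 and 4 h Il10rb was the chain without a difference (log2 0.10 ± 0.13 and -0.12 ± 0.13, adjusted p = 0.515 and 0.44, limma), although at equal totals it was -0.53 (adjusted p = 0.000976) and -0.74. In 5 chains, Il13ra1, Il10ra, Il6ra, Ifnar2 and Ifngr1, the largest changes of the 2 courses were of opposite sign and both courses passed the test, as for 16.0% of all genes. For Il6ra and Ifngr1 this label says little, since no single IL-4 time of Il6ra passed as deposited and Ifngr1 rose and then fell in both courses.

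**Figure D5:**
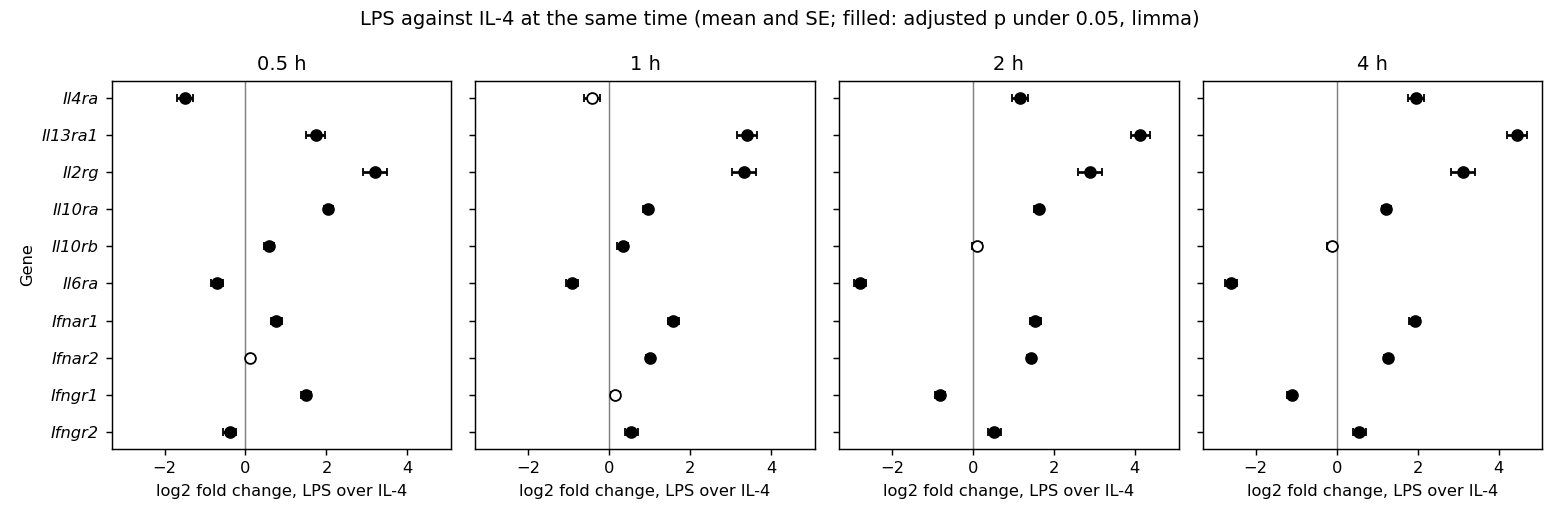
Log2 fold change of LPS over IL-4 (x axis, mean and SE from the fit of all 27 samples) for the 10 genes (y axis) at each of the 4 times, filled where the adjusted p was under 0.05 (limma). Il13ra1 moved from 1.73 at 0.5 h to 4.46 at 4 h, Il4ra from -1.50 to 1.95 and Ifngr1 from 1.49 to -1.11.

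The kinases of these receptors were among the genes that rose after LPS. Beside the list counts from here on, 32.9% of all tested genes passed the F test upward and 54.7% downward over the LPS course. Over the IL-4 course these shares were 19.4% and 20.9%. All 4 JAK genes passed the test over the LPS course with their largest change upward (3 of 4 at equal totals, Jak3 being the exception), led by Jak2 (161 normalised read counts untreated and 5839 at 2 h, 36.3-fold, adjusted p = 7.38e-13, limma). Under IL-4 Jak2 alone passed (3.70-fold at 1 h, adjusted p = 3.79e-06, with 1 further JAK gene lower under either other scaling), and Jak1, Jak3 and Tyk2 had adjusted p = 0.197, 0.0544 and 0.057. Of the 7 STAT genes 5 had their largest LPS change upward (4 at equal totals, 6 with median-of-ratios rescaling), among them Stat3 (4.80-fold, adjusted p = 2.29e-08, limma). Stat6, the factor of the IL-4 receptor, had its largest LPS change downward (log2 change -1.20, adjusted p = 1.25e-09, but 1.30 upward with median-of-ratios rescaling), from 226 untreated through 472 at 0.5 h to 99.0 normalised read counts at 4 h, and Stat4 did not pass (adjusted p = 0.608, limma). Over the IL-4 course 2 STAT genes rose and 4 fell (1 and 5 at equal totals, 1 and 6 with median-of-ratios rescaling), Stat6 by 1.39-fold (adjusted p = 0.0264) and Stat4 by 6.17-fold (adjusted p = 2.54e-05, limma).

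Genes that restrain JAK and STAT signalling were measured too. Of the 8 on the list, 6 had their largest change upward and 1 downward in either course (7 and 0 over LPS with median-of-ratios rescaling, 5 and 2 over IL-4 at equal totals). Cish went from 2.33 normalised read counts untreated to 434 at LPS 2 h and 254 at IL-4 4 h, and Socs1 from 1.0 to 156 at LPS 2 h and 196 at IL-4 2 h. Socs3 rose to 453 at LPS 2 h and had means of 1.33 to 8.33 under IL-4. At equal totals its largest IL-4 change was downward (log2 change -1.16, adjusted p over the course 0.0215, limma). Ptpn6, which encodes the phosphatase SHP-1, had its largest change at 0.5 h, 2.87-fold lower with LPS and 1.83-fold lower with IL-4 (adjusted p = 5.84e-10 and 5.82e-06 over the courses, limma), although with median-of-ratios rescaling its largest LPS change was the rise at 4 h (log2 change 1.56).

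Of 20 other cytokine receptor chains 14 were tested, and over the LPS course 9 rose and 5 fell (7 and 7 at equal totals). Il15ra, which binds IL-15 and works with the same common γ chain, rose most (43.0 to 1725 normalised read counts at LPS 4 h, 39.9-fold, adjusted p = 9.52e-12), and Lifr, a partner of gp130, fell most (235 to 7.67, 28.8-fold, adjusted p = 1.16e-08, limma). Over the IL-4 course 5 rose and 2 fell (4 and 3 at equal totals), with Il7r the largest fall (4.90-fold, adjusted p = 0.000594). Of the 11 tested STAT6 response genes 10 rose over the IL-4 course, among them Mrc1, the mannose receptor (8.47-fold, adjusted p = 1.22e-08), which fell 17.9-fold over the LPS course (adjusted p = 4.67e-11, limma).

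Candidates for likeness were the 6814 non-member genes that overlapped no member on either strand and had a mean of 50 normalised read counts or more over all samples. Pearson's r was over only 9 group means on the log2 scale that share their scaling. The candidates most like a chain are named for 9 of the 10 chains as a description. They were Luc7l3, Wdr43 and 4930597O21Rik for Il4ra (r = 0.974, 0.968 and 0.963), Gm11843 for Il2rg (0.992), Mxd1 for Il10ra (0.949) and Smarca5 for Il10rb (0.977). For the others they were Hdac5 for Il6ra (0.990), Tbk1 for Ifnar1 (0.991), Nck2 for Ifnar2 (0.990), Slc20a1 for Ifngr1 (0.978) and Kansl3 for Ifngr2 (0.988). Within the set, Il13ra1 and Ifnar2 were the pair most alike (r = 0.975) and Il6ra and Ifnar2 the least (r = -0.916).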

How the data were processed

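Chromatin-associated RNA was measured in 27 samples of BMDMs. The authors made Smart-seq2 libraries primed with random primers, sequenced them single-end, and aligned the reads to mm10 with TopHat2 2.1.1 against RefSeq. They removed reads with several hits or in blacklisted regions (bedtools 2.29.2) and counted reads per gene over GRCm38.p6. The authors scaled the libraries on invariant genes and deposited normalised read counts as rounded whole numbers, taken here as a score rather than raw counts. Whether introns were counted or strand was used was not stated, and the number of reads per sample is unknown, so errors come from the spread between replicates. The processing notes also name DESeq2, with no role given, and the impulse model of the study was not run here.

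Sample columns were assigned by their labels, leaving 0 columns without a sample. The 13901 genes with 10 or more normalised read counts in 3 or more samples (99.6% of the summed values) entered limma 3.58.1 (R 4.3.3) on the log2(value + 1) scale, with a mean-variance trend and Benjamini-Hochberg adjustment over all tested genes at 0.05. A fold change on that scale understates the change of low genes. Each course was fitted with its 15 samples, a moderated F test asking for any change, and LPS was compared with IL-4, and times with each other, in a fit of all 27 samples. A course is called by the direction of its largest change. Ratios of chains were compared by exact permutation tests. The scripts were tested on simulated data. Tables and figures were made with Python 3.11.15, pandas 2.3.3 and matplotlib 3.10.9.

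The alternatives were a pseudocount of 8, no filter, a mean of at least 50, median-of-ratios rescaling, equal totals, the replicate number as a block, replicates 2 and 3 averaged, and each replicate left out. Same-numbered samples deviated together from their group means: the correlation over genes was over 0.1 for every pair between untreated and IL-4 samples (0.21 to 0.68), between LPS and IL-4 at the same time (0.19 to 0.63) and within each course, but 1 pair of untreated and LPS samples had 0.0897. The numbers were therefore read as pairing the samples for the IL-4 course and for LPS against IL-4. Between untreated and LPS samples all other correlations exceeded 0.1 (0.37 to 0.60 for replicate 1 and 0.25 to 0.36 for replicate 3). Samples of LPS and untreated were thus read as paired too. The pairing comes from these correlations, since the labels give only the numbers. The main tests still carried no block, so their p-values leave this pairing out. The block was run as an alternative, and with it 8 chains rather than 7 passed over the IL-4 course.

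The members and gene lists were chosen with earlier results of these data known. The text names the 10 members, the tested ligands, JAK and STAT genes, the largest rise and fall of other lists, a few further ones of these lists and the genes overlapping members, and the most alike genes. Some genes that this rule names are not reported here. Ligands and inhibitors given by level alone, and Il6st and Socs3, were chosen after their values were seen. Promoter sequences are from RefSeq (GRCm38.p6), and protein sequences were not analysed here.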

Additional observations from a re-analysis of the deposited data

Results flagged for a closer look

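The receptor chains whose effect differed between stimuli, or between times of a stimulus, by a test of the difference itself (limma, adjusted p under 0.05), with the 2 effects of opposite direction and each called, are given here. The groups of 3 are too small for a test of single outlying samples, and no data lay outside the comparisons.

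Under LPS the log2 change of Il4ra was -0.66 at 0.5 h and positive later, the difference from 0.5 h being 1.69 at 1 h, 3.52 at 2 h and 3.17 at 4 h. At 0.5 h it was lower with LPS and higher with IL-4, a difference of -1.50. Without replicate 2 neither of these calls against untreated passed (adjusted p = 0.0662 and 0.0645, limma). The LPS fall also missed the threshold without replicate 3 and with median-of-ratios rescaling. Ifngr1 was higher than untreated at 0.5 h and lower at 2 and 4 h, the log2 difference from 0.5 h being -3.89 at both times under LPS, and -1.58 at 2 h and -1.29 at 4 h under IL-4. Its fall against untreated at 4 h of IL-4 did not pass without replicate 3 (adjusted p = 0.0604, limma).

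Il13ra1 was higher with LPS and lower with IL-4 at all 4 times, with log2 differences of 1.73, 3.41, 4.14 and 4.46. For Il10ra the same held at 0.5 h (2.05), 1 h (0.95) and 4 h (1.23). For Ifnar2 it held at 1 h (1.02), 2 h (1.43) and 4 h (1.27). At equal totals Il13ra1 at LPS 0.5 h, and Il10ra and Ifnar2 at LPS 1 and 4 h, did not pass as higher. Some of the IL-4 falls of these genes did not pass without replicate 2 or 3.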

How the results depend on the processing

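Of 1800 log2 changes recomputed under the alternatives, 1655 either passed before and after with the same direction or passed neither time, whatever their direction. Of the rest, 82 missed the threshold, 52 newly passed it and 11 turned. A turn was counted only where the main or the alternative value passed. All 11 turned when samples were set to equal totals. Against untreated these were Il10ra at LPS 1 h (-0.20), Il10rb at LPS 1 h (-0.18) and 2 h (-0.62), Ifnar2 at LPS 0.5 h (-0.49) and Ifngr1 at LPS 1 h (-0.38). Between LPS and IL-4 they were Il10rb at 1 h (-0.14) and 2 h (-0.53), Ifnar2 at 0.5 h (-0.27), Ifngr1 at 1 h (-0.32), and Ifngr2 at 2 h (-0.10) and 4 h (-0.061). This setting lowers LPS samples by construction, their sums being the larger ones.

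The count of 10 chains changed over the LPS course held in every alternative. With each replicate left out in turn, the count over the IL-4 course, 7, was 4 to 8, and at IL-4 0.5, 1 and 4 h (4, 4 and 5) it was 2 to 5, 2 to 6 and 2 to 7, the lowest coming without replicate 2 or 3 and the highest without replicate 1. The log2 difference of Ifngr2 between LPS and IL-4 at 0.5 h (adjusted p = 0.0496, limma) passed in few alternatives.

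Between neighbouring times, 8, 7 and 2 chains changed at the LPS steps from 0.5 to 1, 1 to 2 and 2 to 4 h, and 2, 1 and 1 at the IL-4 steps. With a replicate left out these were 5 to 9, 4 to 8 and 0 to 4, and 0 to 6, 1 to 3 and 0 to 3. With replicates 2 and 3 averaged, 1 chain passed at the last LPS step, and 0 at the first and 0 at the last IL-4 step. With a mean of at least 50, the first IL-4 step had 4.

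When blocked by replicate number (the replicate block), the first and last IL-4 steps had 6 and 2 chains, Ifngr2 passed at LPS 0.5 h (-0.32, adjusted p = 0.0414), and the calls named with the report's block values passed. The block ended no call. Each sample's depth is unknown, and Il13ra1 under IL-4 (9 to 33 normalised read counts) rests on the lowest values of the 10 chains together with Il2rg.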
